A study of Mus musculus with 24 samples.

Results

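Open chromatin was examined around 10 genes of the NF-kB pathway in mouse macrophages. They are the subunit genes Nfkb1, Nfkb2, Rel and Relb, the inhibitor and co-regulator genes Nfkbia, Nfkbiz and Bcl3, and the ubiquitin-linked regulator genes Tnfaip3, Birc3 and Traf1. A peak (a stretch of DNA with many ATAC-seq reads) was counted as a member when the authors' table gave it one of these genes. A peak without a row in that table was a member when the nearest transcription start site (TSS) listed there, within 50 kb, was that of one of the 10 genes. The rule found 162 of the 144411 peaks of the count table, 102 through the table and 60 through the nearest TSS. They belong to 9 genes: Nfkb1 has 40, Nfkbiz 30, Tnfaip3 25, Nfkbia 17, Birc3 17, Rel 12, Traf1 12, Bcl3 7 and Relb 2. No peak was assigned to Nfkb2. Being nearest to a gene does not make a peak its regulator.

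The cells were bone-marrow-derived macrophages from male C57BL/6 mice of 8 to 10 weeks, differentiated in culture for 5 days. All mice carried LysM-Cre+/+, a recombinase driven by a myeloid gene. The wild type (WT) mice were GRIP1wt/wt and the knockout (KO) mice GRIP1fl/fl, where GRIP1, the product of Ncoa2, is a coactivator of nuclear receptors. Cells of both genotypes were given vehicle, the glucocorticoid drug dexamethasone (Dex, 100 nM) or the cytokine interleukin 4 (IL4, 10 ng/ml), with 4 libraries in each of the 6 groups. The titles give 24 h for all groups, and the treatment label of the vehicle libraries gives 25 h. No label ties the 4 libraries of a group to separate mice or cultures. The spread behind the p-values is therefore that between libraries and may be technical.

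NF-kB proteins are dimers of related DNA-binding subunits. In resting cells most dimers are held in the cytoplasm by IkB proteins, and signals from Toll-like and cytokine receptors free them by having the IkB proteins marked with ubiquitin and degraded. NF-kB then switches on inflammatory genes together with the genes of several of its own inhibitors, which end the response. In macrophages glucocorticoids are known to restrain this pathway, and IL4 is known for a different, alternatively activated state.

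The stretch of 250 bases before the start is shown for the 4 genes in which it holds the NF-kB consensus site, since such sites are the textbook basis of feedback on these genes. Sequences are from RefSeq (GRCm38.p6, the same assembly as the mm10 build of the files), and each runs 5′ to 3′ up to the base before the start (for Nfkb2 the first of its listed starts). Capitals mark the NF-kB sites.
Nfkb2 (chr19:46304487-46304736, plus strand): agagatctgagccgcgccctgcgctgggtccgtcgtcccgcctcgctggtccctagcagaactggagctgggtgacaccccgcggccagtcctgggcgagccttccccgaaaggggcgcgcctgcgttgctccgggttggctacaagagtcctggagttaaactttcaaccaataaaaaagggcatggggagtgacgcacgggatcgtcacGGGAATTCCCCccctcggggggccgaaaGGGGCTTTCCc
Rel (chr11:23770970-23771219, minus strand): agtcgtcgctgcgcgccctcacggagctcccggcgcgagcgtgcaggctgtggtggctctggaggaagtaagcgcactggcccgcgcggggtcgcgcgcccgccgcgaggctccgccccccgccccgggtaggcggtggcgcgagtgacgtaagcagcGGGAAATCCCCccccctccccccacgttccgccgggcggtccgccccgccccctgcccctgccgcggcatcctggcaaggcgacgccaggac
Nfkbia (chr12:55492648-55492897, minus strand): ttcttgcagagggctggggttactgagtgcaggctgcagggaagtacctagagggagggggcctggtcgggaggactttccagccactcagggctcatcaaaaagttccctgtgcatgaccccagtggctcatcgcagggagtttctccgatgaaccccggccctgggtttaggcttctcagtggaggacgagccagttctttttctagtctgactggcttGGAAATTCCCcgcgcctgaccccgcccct
Tnfaip3 (chr10:19015411-19015660, minus strand): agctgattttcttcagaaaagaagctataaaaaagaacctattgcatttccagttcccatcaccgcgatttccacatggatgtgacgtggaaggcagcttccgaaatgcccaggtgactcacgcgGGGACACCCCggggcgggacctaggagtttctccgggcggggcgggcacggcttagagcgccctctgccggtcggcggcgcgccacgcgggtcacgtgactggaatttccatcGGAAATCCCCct
The Nfkbia site lies 29 to 20 bases before the start. Rel has 2 overlapping sites between 92 and 82 bases, and Tnfaip3 has 1 at 125 to 116 and 1 at 12 to 3 bases. Nfkb2 has overlapping sites between 39 and 29 bases and another at 11 to 2 bases. The NF-kB consensus, searched on both strands and named here without its letters, was found in 6 of the 10 listed start windows of the members, in 4 of the 7 genes with an entry. It was found in 3.90% of all 32851 windows of the same length. The glucocorticoid response element GNACANNNTGTNC was found in 0 of the 10 member windows and 0.387% of all windows. The STAT6 site TTCNNNNGAA was found in 1 and 5.85%, and the AP-1 site TGANTCA in 2 and 6.75%. A match is only a description of the letters.

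All the printed stretches lie within peaks. The listed starts of Nfkb2 are all in the peak chr19:46303953-46306206, which the authors' distances place with another gene, Psd. This peak is not counted among the members, and it held 109, 95.4, 95.3 and 89.6 CPM (counts relative to library size, scaled by the TMM method) in the WT vehicle libraries 1 to 4. With Dex it held 108, 95.3, 91.2 and 83.8 CPM, and with IL4 78.9, 75.5, 77.8 and 69.8 CPM. All IL4 libraries were below all vehicle libraries (log2 change −0.37 ± 0.07, SE, n = 4 per group, adjusted p = 2.48e-06), while the Dex and vehicle libraries overlapped (−0.05 ± 0.06, adjusted p = 0.675). Only the TMM scaling was read for this peak. Among all peaks within 1 kb of a listed TSS, 43.0% were called lower with IL4, with a median of −0.21.

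Members were 145 to 2051 bases long, with a median of 466.5. Of the 162, 60 lay inside their own gene by the RefSeq spans, 21 inside another gene only and 81 between genes. Within 1 kb of the listed TSS lay 14 members. FANTOM enhancers were marked in 27 of the 102 members in the authors' table (26.5%), against 13.8% of all peaks in that table. Peaks of 1 kb or more were 21 of the members (13.0%), against 9.26% of all peaks. None of the peaks of that length is in the authors' table. A low-count filter left 155 members for the tests; the other 7, of Nfkb1, Rel and Birc3, held 0.23 to 0.615 CPM on average.

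The 24 libraries held 5820149 to 21939330 counts in peaks, of which 9591 to 35720 fell in members. Levels on the members ran higher in the WT libraries numbered 1 than in the other libraries of their groups (median log2 deviation 0.0934 to 0.158). Promoter peaks were found for 8 of 8 macrophage markers (256 to 357 CPM summed over them). They were also found for 4 of 6 neutrophil, 3 of 4 dendritic cell, 3 of 5 B cell, 1 of 7 T and NK cell, 1 of 6 fibroblast and 1 of 4 mast cell markers, whose levels by treatment are given after the members' results. In bulk libraries fewer cells with an open site and less opening per cell cannot be told apart. The labels do not name the deleted part of Ncoa2. A peak inside that gene (chr1:13256160-13256636) held 6.3, 7.49, 7.37 and 6.39 CPM in WT vehicle and 3.61, 3.05, 2.88 and 2.84 CPM in KO vehicle libraries (−1.15 ± 0.16, adjusted p = 1.01e-07), a lower level in KO. A peak 49.7 kb upstream of it (chr1:13423543-13423943) was higher in KO (2.96 ± 0.21, adjusted p = 6.42e-20).

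The first comparison asked how Dex changed the open sites of these genes in WT cells. Of the 155 tested members 38 were called (adjusted p below 0.05 over all 130103 tested peaks), 19 higher and 19 lower, a share of 24.5% against 16.6% of all tested peaks. Among all peaks 8.56% were called higher and 8.08% lower. The median change of the members was −0.02 on the log2 scale, and that of all peaks 0.01. The called Tnfaip3 peaks were mostly higher (7 higher, 1 lower of 25 tested) and the called Nfkb1 peaks mostly lower (1 higher, 6 lower of 37 tested). Without WT Dex replicate 1 Tnfaip3 had 6 higher and 5 lower, and Nfkb1 had 1 higher and 8 lower. The lower count over all members rested on single libraries: without WT Dex replicate 1 the calls were 17 higher and 33 lower, and without WT vehicle replicate 1 they were 19 higher and 12 lower. Calls over all tested peaks in these refits are not given here, so no shift of the members against them is read.

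The second comparison asked the same of IL4. Here 72 of the 155 members were called, 30 higher and 42 lower, a share of 46.5% against 35.4% of all tested peaks (19.3% higher and 16.1% lower). The median change was −0.11 for the members and −0.01 for all peaks. By gene, Nfkb1 had 13 peaks higher and 3 lower of 37, and Rel 4 higher and 1 lower of 10. Nfkbiz had 1 higher and 16 lower of 30, and Bcl3 0 higher and 5 lower of 7. IL4 against Dex in WT, tested directly, called 80 members (51.6%, against 45.1% of all peaks), 34 higher and 46 lower with IL4 (23.4% and 21.7% of all peaks). With libraries scaled by their total counts that split of the members was 41 higher and 35 lower, and the split of all peaks at that scaling is not given. Dex and IL4 are compared with the same 4 vehicle libraries, so their calls are not independent.

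**Figure D1:**
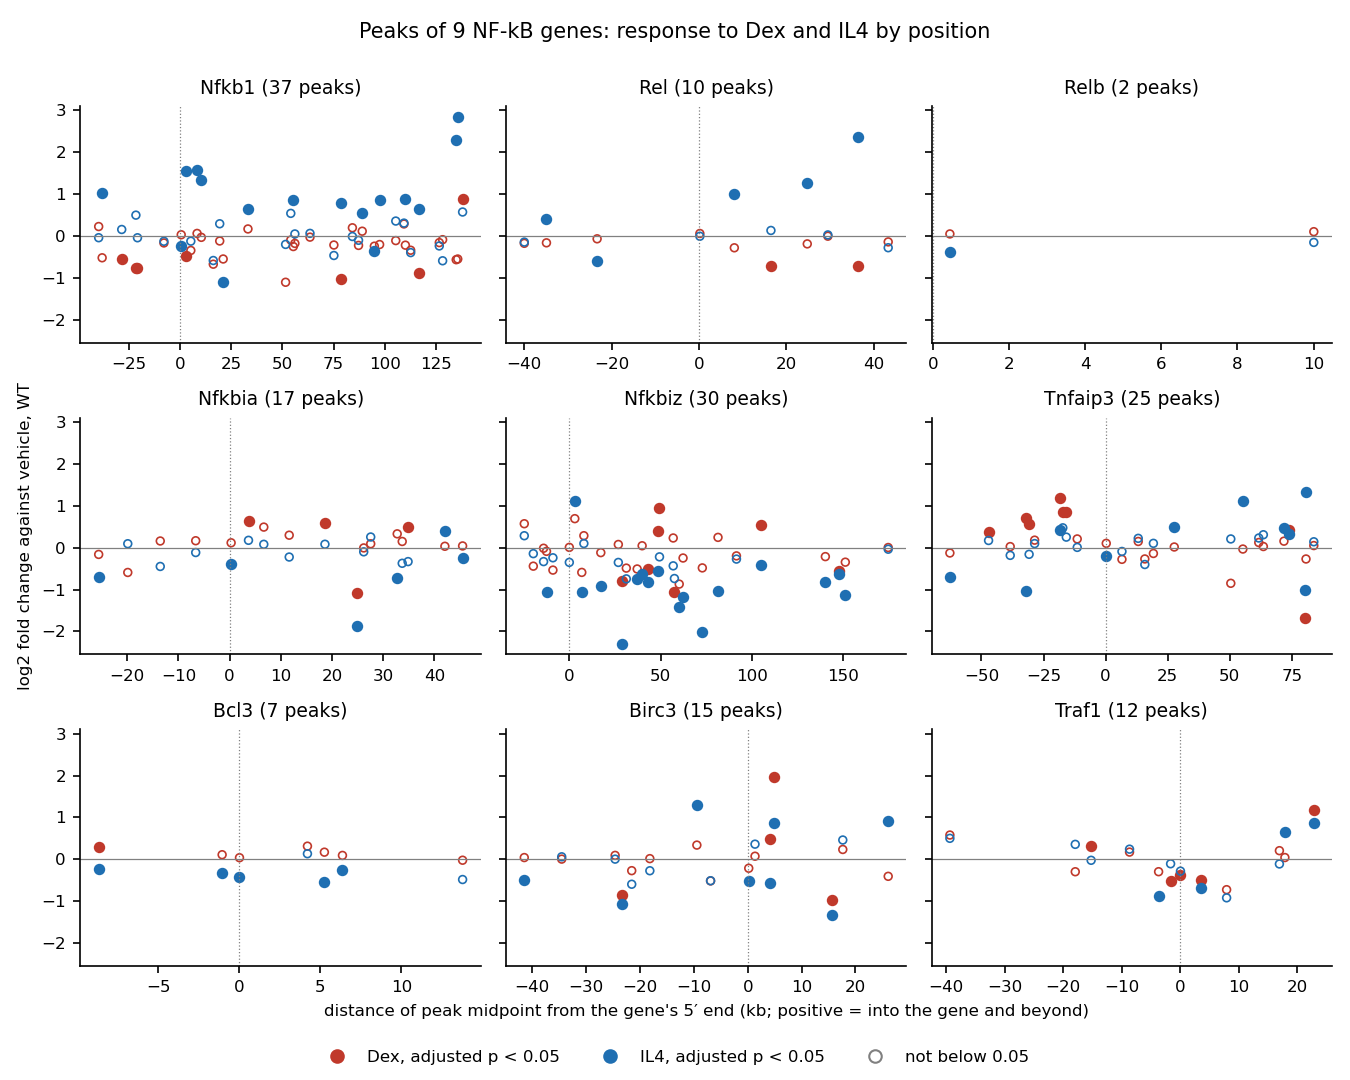
Log2 fold change against vehicle in WT cells for each tested peak of 9 genes (vertical axis) by the distance of its midpoint from the gene's 5′ end in kb (horizontal axis). Filled points are called at an adjusted p below 0.05, open points are not, red is Dex and blue is IL4. Of the 16 lower IL4 calls of Nfkbiz 13 lie between genes, as do 20 of its 30 tested peaks. Of the 13 higher IL4 calls of Nfkb1 8 lie inside the gene, as do 22 of its 37 tested peaks.

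Nfkb1 encodes a precursor that is cut to a DNA-binding subunit, and its gene spans chr3:135584655-135691969. Its promoter peak, chr3:135690612-135692013, held 32.8, 32.1, 30.3 and 29.1 CPM in WT vehicle libraries, 36.5, 33.6, 29.5 and 28.6 CPM with Dex, and 30.9, 25.7, 25.2 and 23.6 CPM with IL4. IL4 libraries were lower with an overlap (−0.24 ± 0.08, adjusted p = 0.0128), a call lost without WT vehicle replicate 1 (−0.21), WT IL4 replicate 2 (−0.22) or WT IL4 replicate 4 (−0.18), and under loess (−0.09).

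The peak of Nfkb1 with the smallest IL4 p-value, chr3:135556077-135556795, lay 135.5 kb from the 5′ end, past the gene's 3′ end and inside the neighbouring gene Manba. In WT it held 0.922, 1.45, 0.854 and 1.03 CPM with vehicle and 6.37, 7.55, 8.77 and 7.92 CPM with IL4. All IL4 libraries were above all vehicle libraries, and the rise was 7.19-fold (log2 2.85 ± 0.21, adjusted p = 2.55e-21). With Dex the libraries held 0.915, 0.923, 0.41 and 0.7 CPM and overlapped vehicle (−0.55 ± 0.33, adjusted p = 0.269). In KO the rise with IL4 was 2.48 ± 0.21.

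A second site of Nfkb1, chr3:135689005-135689415, chosen after its values were seen, lies inside the gene 2.8 kb from its 5′ end and carries a FANTOM mark. WT vehicle libraries held 4.61, 4.92, 6.51 and 5.98 CPM and IL4 libraries 15.7, 16.4, 17.7 and 14.6 CPM. The groups did not overlap (1.56 ± 0.13, adjusted p = 5.04e-19). Dex libraries held 4.58, 2.77, 4.43 and 3.5 CPM and were all below vehicle (−0.47 ± 0.16, adjusted p = 0.0234).

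Dex had its smallest p-value for Nfkb1 at chr3:135574829-135575356, 116.9 kb from the 5′ end and past the gene. Vehicle libraries held 3, 2.35, 2.88 and 2.99 CPM, Dex libraries 1.48, 2.22, 1.48 and 1.35 CPM, and IL4 libraries 4.79, 3.75, 4.28 and 5.22 CPM. The groups did not overlap: Dex was lower (−0.89 ± 0.23, adjusted p = 0.00295) and IL4 higher (0.66 ± 0.19, adjusted p = 0.00387). Summed over its 40 peaks, Nfkb1 held 191 ± 5.8 CPM (mean ± SD, n = 4) in WT vehicle, 176 ± 11 with Dex and 220 ± 4.8 with IL4.

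Rel encodes c-Rel, a subunit with a transactivation domain, in the span chr11:23736847-23770969. Its promoter peak, chr11:23769745-23771795, is the longest of the members. It held 84.8, 80, 77 and 75.1 CPM with vehicle, 89.3, 82.5, 79.3 and 80 CPM with Dex, and 84.2, 78.8, 80.1 and 73 CPM with IL4. All 3 WT groups overlapped, with no call for Dex (0.06 ± 0.06, adjusted p = 0.579) or IL4 (−0.00 ± 0.06, adjusted p = 0.966). Under an offset fitted to each level (loess) the IL4 value was 0.27 and called.

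The peak chr11:23734099-23735103, 36.4 kb from the Rel 5′ end and just past its 3′ end, behaved otherwise. Vehicle libraries held 3.3, 2.12, 2.88 and 1.86 CPM, and IL4 libraries 14.4, 12.5, 14 and 12.6 CPM. The IL4 rise was 5.11-fold with no overlap (2.35 ± 0.15, adjusted p = 5.24e-24), and in KO it was 1.97 ± 0.15. Dex libraries held 1.48, 0.739, 1.64 and 1.82 CPM, all below vehicle (−0.73 ± 0.22, adjusted p = 0.0139), the highest of them just below the lowest vehicle library. In KO the Dex value was −0.26 and not called. The difference between the genotypes was not called either (0.46 ± 0.30). Inside Rel, 16.5 kb from the 5′ end, the FANTOM-marked peak chr11:23754088-23754911 fell with Dex from 14.6, 13.5, 12 and 12 CPM to 9.78, 7.75, 6.81 and 7.37 CPM. That fall had no overlap (−0.72 ± 0.12, adjusted p = 1.35e-06) and stood at −0.53 ± 0.12 in KO, while IL4 libraries at 16.5, 14.2, 14.5 and 12.2 CPM overlapped vehicle (0.13 ± 0.11, adjusted p = 0.361).

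Relb encodes a subunit of the non-canonical branch of the pathway and spans chr7:19606217-19629438. Both of its peaks lie inside it. The peak over its 5′ end, chr7:19628346-19629641, held 117, 113, 111 and 110 CPM with vehicle, 134, 112, 118 and 102 CPM with Dex, and 90.9, 83.7, 87.8 and 86.2 CPM with IL4. IL4 libraries were all lower (−0.37 ± 0.06, adjusted p = 8.7e-07; −0.07 and not called under loess), and Dex overlapped vehicle (0.05 ± 0.06, adjusted p = 0.648). The peak at the listed internal TSS, chr7:19618968-19619894, held 7.36 to 11.6 CPM over the WT libraries and was called in neither comparison.

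Nfkbia encodes IkB alpha, the inhibitor that NF-kB itself induces, in the span chr12:55489409-55492647. Dex called 4 of its 17 peaks, 3 higher and 1 lower (3 and 2 with total-count scaling or DESeq2 size factors, 4 and 0 without WT vehicle replicate 1, 2 and 2 in KO). The main Dex share was 23.5%, against 16.6% of all tested peaks. IL4 called 1 higher and 5 lower, a share of 35.3% that was near the 35.4% of all tested peaks. Under loess the IL4 split was 4 higher and 3 lower. Without the 3 WT libraries numbered 1 it was 1 higher and 3 lower.

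The Nfkbia promoter peak, chr12:55491729-55492983, which holds the site printed above, held 104, 106, 101 and 96.6 CPM with vehicle and 91.7, 76.4, 73.5 and 71.2 CPM with IL4. All IL4 libraries were lower (−0.38 ± 0.07, adjusted p = 4.01e-06), and the value under loess was −0.09 and not called. Dex libraries held 126, 112, 112 and 93.9 CPM and overlapped vehicle (0.12 ± 0.07, adjusted p = 0.25). Without WT Dex replicate 4 the Dex value was 0.20 and called.

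The smallest Dex p-value of Nfkbia was at chr12:55488602-55489319, a FANTOM-marked peak just past the 3′ end of the gene and 3.7 kb from its 5′ end. Vehicle libraries held 37.4, 35.5, 35.9 and 30.9 CPM and Dex libraries 49.6, 58.5, 59.2 and 51.5 CPM. The rise was 1.55-fold with no overlap (0.63 ± 0.07, adjusted p = 4.41e-11), and 0.55 ± 0.07 in KO. IL4 libraries held 41.5, 40.7, 39.5 and 36.2 CPM and overlapped vehicle (0.18 ± 0.07, adjusted p = 0.0577); they were lower than Dex (−0.46 ± 0.07, adjusted p = 6.38e-08). The other higher Dex calls of Nfkbia, both between genes, were named after their values were seen. At chr12:55473534-55474506, 18.6 kb from the 5′ end, vehicle libraries held 25.3, 24.8, 27.9 and 27.3 CPM and Dex libraries 39.8, 43.4, 38.8 and 38.2 CPM. They did not overlap (0.59 ± 0.07, adjusted p = 2.72e-10), and the KO value was 0.55 ± 0.07. At chr12:55457476-55458079, 34.9 kb from the 5′ end, the levels were 6.06 ± 1.5 CPM with vehicle and 8.50 ± 1.5 CPM with Dex (SD, n = 4), with an overlap (0.49 ± 0.14, adjusted p = 0.0053). In KO that value was 0.18 ± 0.14 and not called (adjusted p = 0.435).

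Nfkbiz encodes IkB zeta, a nuclear cofactor that NF-kB dimers need for a group of late inflammatory genes, and spans chr16:55811375-55838954. It had 1 peak higher and 16 lower of 30 with IL4, with a median of −0.63 (1 and 18 under loess, 1 and 12 without WT vehicle replicate 1). The share of its peaks called with IL4 was 56.7%, while over all tested peaks 35.4% were called, 16.1% lower. Of the 20 Nfkbiz peaks between genes, 13 were lower and 0 higher, with a median of −0.74. The share among all peaks between genes was not computed. Summed over its 30 peaks the gene held 257 ± 21 CPM in WT vehicle, 242 ± 29 with Dex and 167 ± 11 with IL4. In KO the sums were 247 ± 11, 233 ± 14 and 163 ± 2.7 CPM.

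The Nfkbiz peak at an internal listed TSS, chr16:55820798-55822657, 17.2 kb into the gene, held 55.5, 58.8, 48.6 and 47.9 CPM with vehicle. It held 29.5, 27.8, 26.5 and 27 CPM with IL4 and 56.5, 44.3, 47.8 and 44.8 CPM with Dex. The IL4 libraries stood at 0.526 of vehicle with no overlap (−0.93 ± 0.07, adjusted p = 7.57e-19), as in KO (−0.85 ± 0.08). Dex overlapped vehicle (−0.12 ± 0.07, adjusted p = 0.277), although the value was −0.20 and called without WT Dex replicate 1 and under loess. The peak over the 5′ end, chr16:55838479-55839474, had an IL4 value of −0.35 ± 0.16 that was not called (adjusted p = 0.0981).

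At 147.8 kb from the Nfkbiz 5′ end the FANTOM-marked peak chr16:55690981-55691427 was lower with both agents. It held 19.7, 20.6, 19.4 and 16.9 CPM with vehicle, 15.1, 11.4, 13.2 and 11.9 CPM with Dex, and 13.8, 11.5, 13.5 and 11.4 CPM with IL4. Both were below vehicle in all libraries, with −0.55 ± 0.10 for Dex (adjusted p = 1.18e-05) and −0.62 ± 0.10 for IL4 (adjusted p = 3.05e-07). At 104.8 kb the peak chr16:55733690-55734639 moved in opposite directions. It held 13.7, 10.4, 12.6 and 13.7 CPM with vehicle, 20.5, 16.1, 17.6 and 18.3 CPM with Dex, and 10.5, 9.07, 8.97 and 9.78 CPM with IL4. Dex was higher (0.53 ± 0.10, adjusted p = 2.18e-05), IL4 lower with an overlap (−0.41 ± 0.11, adjusted p = 0.00149), and IL4 lower than Dex (−0.94 ± 0.10, adjusted p = 1.79e-13).

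Bcl3 encodes a nuclear IkB protein that works with homodimers of the Nfkb1 and Nfkb2 products, and spans chr7:19808462-19822824. With IL4 5 of its 7 peaks were lower and 0 higher, and under loess the counts were 2 and 0. The main share was 71.4%, while over all tested peaks 35.4% were called, 16.1% lower. Of all peaks within 1 kb of a listed TSS, 43.0% were called lower. The peak over its 5′ end, chr7:19822510-19823114, held 19.7, 14.6, 15.7 and 16.6 CPM with vehicle, 20.6, 19.2, 17.2 and 13.6 CPM with Dex, and 14.4, 12.7, 11.3 and 11.9 CPM with IL4. All IL4 libraries were lower (−0.41 ± 0.11, adjusted p = 0.00128), under loess too (−0.34), and Dex overlapped vehicle (0.04 ± 0.10, adjusted p = 0.856). The next peak, chr7:19823269-19824497, 1.1 kb upstream, fell from 54.8, 58.3, 58.4 and 54.4 CPM to 47, 46.1, 43.1 and 43.4 CPM with IL4 (−0.33 ± 0.07, adjusted p = 2.99e-05; −0.10 and not called under loess).

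The Bcl3 peak with the smallest Dex p-value was chr7:19830716-19832280, 8.7 kb upstream, inside the predicted gene Gm34891 and nearer to an end of it. Vehicle libraries held 83.6, 82.5, 83.5 and 76.4 CPM, Dex libraries 101, 109, 104 and 90 CPM, and IL4 libraries 71.9, 65.1, 70.5 and 71.5 CPM. The 3 groups did not overlap. Dex was higher (0.30 ± 0.06, adjusted p = 0.000177) and IL4 lower than vehicle (−0.23 ± 0.06, adjusted p = 0.00296), but the IL4 value under loess was 0.05 and not called.

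**Figure D2:**
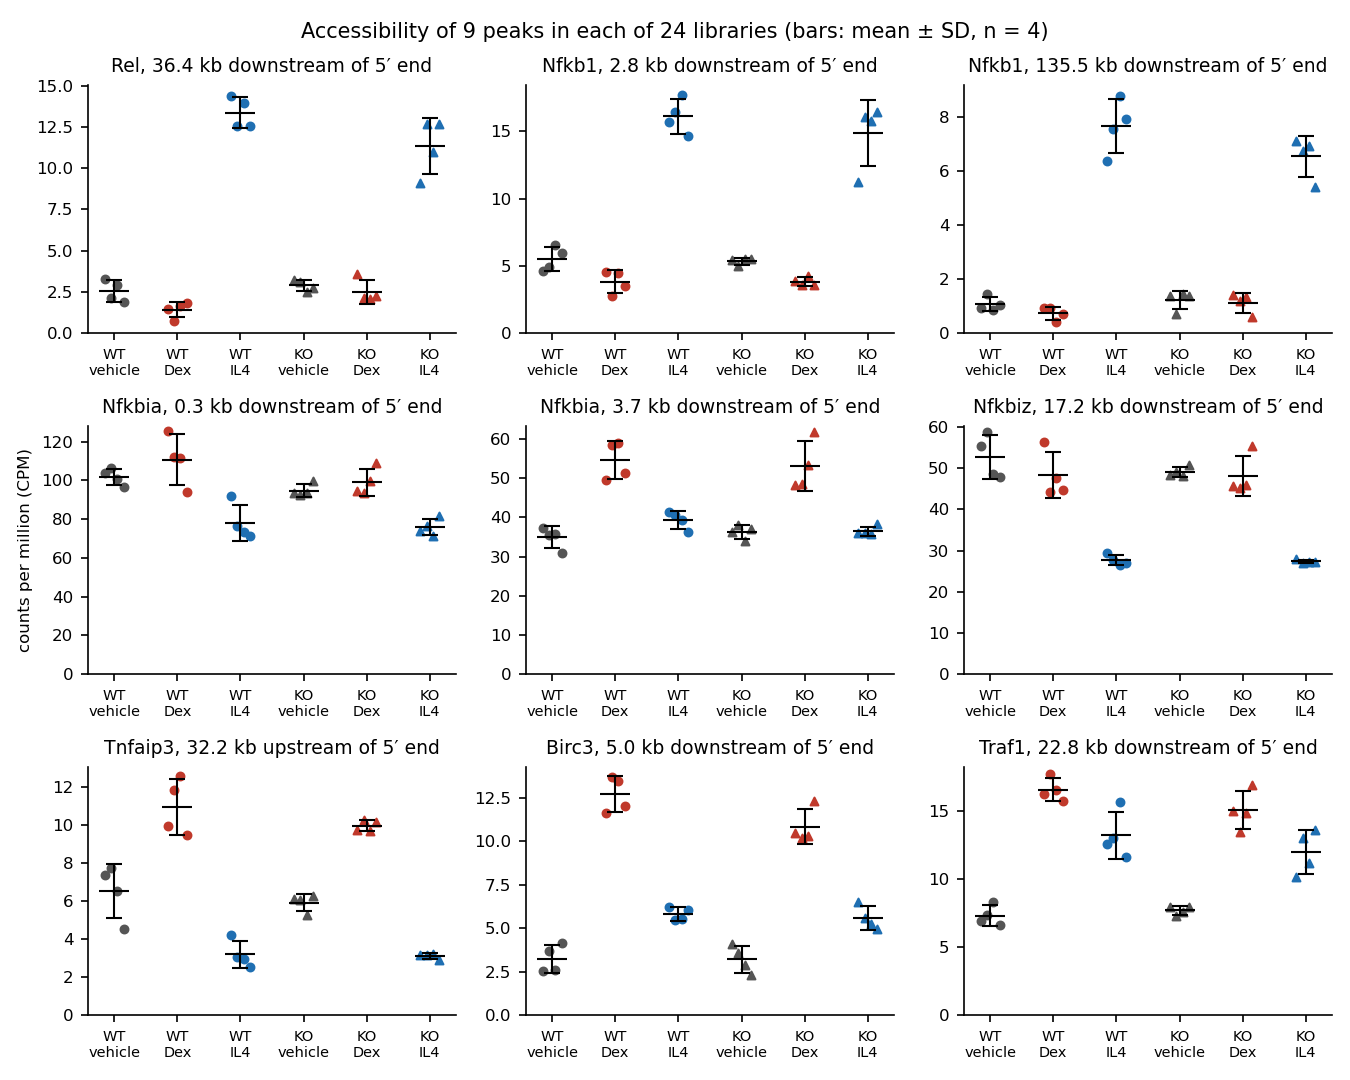
TMM-scaled CPM (vertical axis, from 0) of each library at 9 peaks described in the text, by genotype and treatment (circles WT, triangles KO, grey vehicle, red Dex, blue IL4; lines are the mean ± SD, n = 4). In both genotypes the IL4 libraries stand above vehicle at the Nfkb1 and Rel peaks, and the Dex libraries stand above vehicle at the Nfkbia peak 3.7 kb from the 5′ end and at the Tnfaip3, Birc3 and Traf1 peaks.

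Tnfaip3 encodes A20, an enzyme that edits ubiquitin chains and shuts off signalling to NF-kB, in the span chr10:19000910-19015410. Its promoter peak, chr10:19014455-19015866, held 46.8, 37.4, 42.3 and 43.7 CPM with vehicle, 52.8, 43.2, 42.8 and 44 CPM with Dex, and 39.1, 36, 36.8 and 37.1 CPM with IL4. Dex and IL4 libraries both overlapped vehicle. The IL4 call (−0.20 ± 0.07, adjusted p = 0.0242) was lost under DESeq2, total-count scaling and loess (−0.01). It was also lost without WT vehicle replicate 1 (−0.15) or 4 (−0.19), or WT IL4 replicate 2 (−0.17), 3 (−0.19) or 4 (−0.19).

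Upstream of Tnfaip3, 18.4 kb away, the peak chr10:19033557-19034094 held 3.46, 3.8, 3.42 and 4.23 CPM with vehicle and 8.45, 8.86, 7.96 and 8.68 CPM with Dex. The rise was 2.28-fold with no overlap (1.19 ± 0.14, adjusted p = 2.64e-10), and 1.04 ± 0.14 in KO. IL4 libraries held 4.3, 6.2, 5.3 and 3.73 CPM, higher than vehicle with an overlap (0.42 ± 0.16, adjusted p = 0.0276).

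Farther upstream of Tnfaip3, at 32.2 kb, the peak chr10:19047385-19047840 had opposite responses. Vehicle libraries held 7.37, 7.71, 6.51 and 4.53 CPM, Dex libraries 9.92, 11.8, 12.6 and 9.47 CPM, and IL4 libraries 4.22, 3.04, 2.96 and 2.51 CPM. No groups overlapped. Dex was higher (0.71 ± 0.13, adjusted p = 1.53e-05), IL4 lower (−1.04 ± 0.16, adjusted p = 5.67e-08), and IL4 stood at 0.299 of Dex (−1.74 ± 0.14, adjusted p = 4.46e-19). In KO the Dex and IL4 values were 0.75 ± 0.13 and −0.93 ± 0.16. The 22 tested Tnfaip3 peaks between genes had 7 higher and 1 lower with Dex, and 6 higher and 3 lower with IL4. Over all 25 tested peaks of the gene 32% were called with Dex, against 16.6% of all tested peaks. With IL4 the share was 40% against 35.4%. Without WT Dex replicate 1 the Dex split over all 25 Tnfaip3 peaks was 6 higher and 5 lower.

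Birc3 encodes a ubiquitin ligase that acts at the tumour necrosis factor receptor and spans chr9:7847468-7873205. Inside the gene, 5.0 kb from its 5′ end, the FANTOM-marked peak chr9:7867990-7868495 had the smallest Dex p-value of the 155 members. Vehicle libraries held 2.53, 3.69, 2.56 and 4.12 CPM, Dex libraries 11.6, 13.7, 13.5 and 12 CPM, and IL4 libraries 6.2, 5.44, 5.51 and 6.05 CPM. No groups overlapped. The rise was 3.93-fold with Dex (1.97 ± 0.14, adjusted p = 9.2e-21) and 1.82-fold with IL4 (0.86 ± 0.16, adjusted p = 8.3e-06), and IL4 stood below Dex (−1.11 ± 0.12, adjusted p = 9.03e-13).

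The Birc3 promoter peak, chr9:7872495-7873535, went the other way. It held 57.5, 51.7, 51.2 and 47.7 CPM with vehicle, 60.9, 45.4, 37.7 and 36.7 CPM with Dex, and 43.9, 35.3, 35 and 31.9 CPM with IL4. IL4 libraries were all lower (−0.51 ± 0.13, adjusted p = 0.00364; −0.32 and not called under loess). Dex libraries spread widely, and the value was not called (−0.21 ± 0.13, adjusted p = 0.293); without WT Dex replicate 1 it was −0.42 and called. A further peak inside the gene, chr9:7857216-7857744, 15.7 kb from the 5′ end, held 7.14, 6.15, 5.13 and 4.64 CPM with vehicle. It fell to 4.22, 2.4, 2.22 and 2.71 CPM with Dex (−0.98 ± 0.18, adjusted p = 1.43e-05) and to 2.81, 2.58, 2.14 and 1.58 CPM with IL4 (−1.33 ± 0.19, adjusted p = 7.21e-09), with no overlap.

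Traf1 encodes an adaptor that binds Birc3 protein and limits receptor signalling, and spans chr2:34941750-34961812. Its peak chr2:34938674-34939365, past the 3′ end and 22.8 kb from the 5′ end, had the smallest p-value of the gene for both agents. Vehicle libraries held 6.91, 7.38, 8.33 and 6.6 CPM, Dex libraries 16.3, 17.7, 16.6 and 15.7 CPM, and IL4 libraries 12.6, 13, 15.7 and 11.6 CPM. Dex and IL4 libraries were all above vehicle, by 2.25-fold (1.17 ± 0.11, adjusted p = 1.41e-14) and 1.81-fold (0.86 ± 0.12, adjusted p = 1.65e-09). IL4 libraries were all below the lowest Dex library, the nearest by a narrow margin, and the difference was called (−0.32 ± 0.10, adjusted p = 0.00581).

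At an internal listed TSS of Traf1 the peak chr2:34957721-34958847 was lower with both agents. It held 16.7, 14.1, 15.3 and 12.3 CPM with vehicle, 14.1, 7.94, 8.62 and 10 CPM with Dex, and 12.6, 8.66, 7.14 and 7.64 CPM with IL4. Both overlapped vehicle through the libraries numbered 1. The values were −0.49 ± 0.14 for Dex (adjusted p = 0.0109; −0.40 and not called without WT vehicle replicate 1) and −0.69 ± 0.14 for IL4 (adjusted p = 0.000121).

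Over the 9 member peaks that cover the 5′ end of their gene, IL4 was called lower at 6 and higher at 0, with a median of −0.35. Peaks within 1 kb of a listed TSS showed the same lean in the whole table: 49.3% were called with IL4, 43.0% lower, with a median of −0.21, and 8 of the 14 members there were called, 7 lower and 1 higher. The share of all counts that fell within 1 kb of a TSS was 33.6 to 34.0% in WT vehicle and 29.9 to 30.5% in WT IL4 libraries, and its part in these falls was not tested. The summed promoter level of the 8 macrophage markers also lay outside the vehicle range, at 256 to 268 CPM with IL4 against 300 to 329 CPM with vehicle. With Dex it was 329 to 357 CPM in WT, just above the vehicle range. In KO it was 294 to 325 CPM with vehicle, 293 to 344 CPM with Dex and 258 to 271 CPM with IL4. Under loess 1 of the 9 was lower (Bcl3) and 1 higher (Rel), with a median of −0.09. Dex was called at 1 of the 9, the Traf1 peak chr2:34961538-34962065 (−0.38 ± 0.14, adjusted p = 0.0481), at 0 without WT vehicle replicate 1 and at 3 without WT Dex replicate 1. Among all peaks within 1 kb of a listed TSS, 12.0% were called with Dex, 8.86% higher and 3.12% lower, with a median of 0.07. Of the 14 members there, 0 were called higher and 2 lower with Dex.

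**Figure D3:**
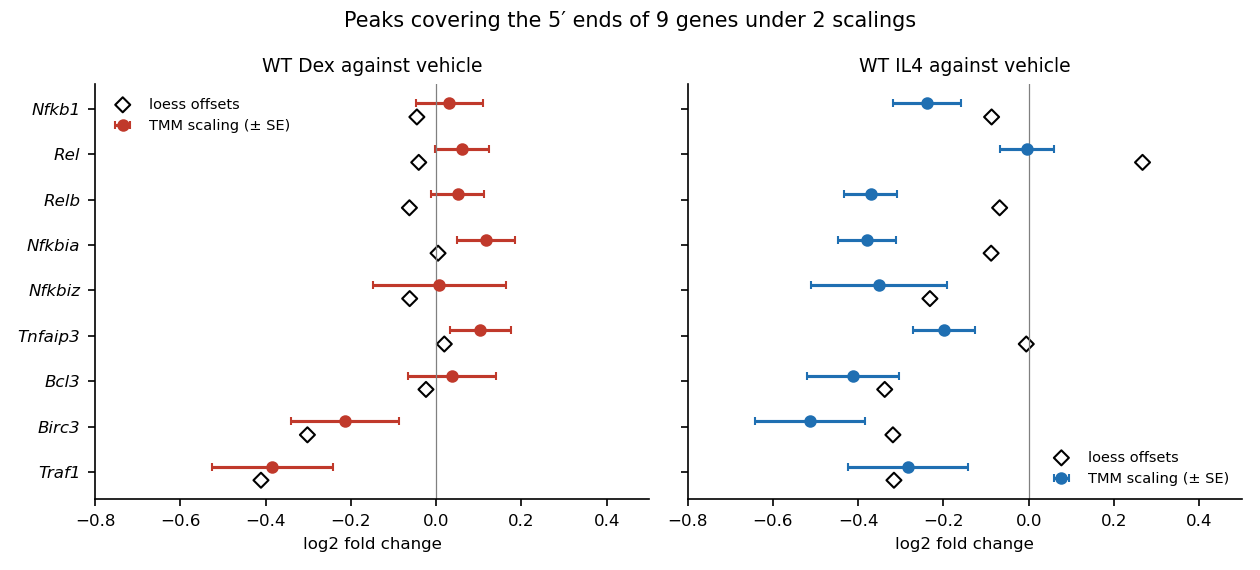
Log2 fold change with its SE at the 9 member peaks over a 5′ end in WT cells, for Dex (left, red) and IL4 (right, blue) with TMM scaling, and the value with loess offsets (diamonds). With TMM scaling the IL4 value of Rel is at 0 and the other 8 are below it, and with loess Rel is at 0.27 and the median at −0.09.

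Calls were also split by place. Between genes 14 of 80 tested members were higher and 12 lower with Dex, and 14 higher and 24 lower with IL4. Inside their own gene 2 of 54 were higher and 6 lower with Dex, and 13 higher and 15 lower with IL4. Over all tested peaks, wherever they lie, 8.56% were higher and 8.08% lower with Dex, and 19.3% higher and 16.1% lower with IL4. The shares among all peaks between genes or inside them were not computed, so no difference from the background is read from this split.

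Levels at markers of other cell types also ran in different ranges by treatment. The summed level at 4 of 6 neutrophil marker promoters was 17.0 to 22.7 CPM in WT vehicle and 27.2 to 32.5 CPM in WT Dex libraries, with no peak at Elane or Ly6g. The only T and NK cell marker with a promoter peak, Klrb1c, of 7, was at 9.99 to 13.6 CPM in WT vehicle and 22.1 to 26.1 CPM in WT IL4. The only fibroblast marker of 6, Pdgfrb, was at 2.46 to 2.89 CPM in WT vehicle and 5.30 to 7.08 CPM in WT IL4. In KO the neutrophil sum was 15.97 to 28.6 CPM with vehicle and 27.5 to 37.8 CPM with Dex. The sum of 3 of 4 dendritic cell markers was 28.3 to 30.4 CPM in WT vehicle and 29.3 to 34.3 CPM in WT Dex. In KO it was 27.6 to 30.6 CPM with vehicle and 31.5 to 35.3 CPM with Dex, without overlap. The sum of 3 of 5 B cell markers (no peak at Cd79a or Pax5) was 9.60 to 11.9 CPM in WT vehicle, 8.49 to 10.1 CPM with Dex and 6.43 to 10.1 CPM with IL4. In KO it was 9.35 to 11.6 CPM with vehicle, above all libraries with Dex (7.94 to 8.94 CPM) and IL4 (7.25 to 8.94 CPM). The single mast cell marker with a peak, of 4, ran from 0.410 to 1.82 CPM over all libraries. The part of these cell types in the results was not tested.

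The third comparison asked what the GRIP1 genotype changed. In KO cells Dex called 33 of the 155 members (13 higher and 20 lower, a share of 21.3% against 13.6% of all peaks, 6.97% higher and 6.63% lower). IL4 called 64 (26 higher and 38 lower, a share of 41.3% against 31% of all peaks, 17% higher and 13.9% lower). All 38 WT Dex calls had the same sign in KO, and 24 of them were called there, which is 63.2% of the WT and 72.7% of the KO calls. All 72 WT IL4 calls had the same sign, and 51 were called there, 70.8% of the WT and 79.7% of the KO calls. Across the 155 peaks the KO effect followed the WT effect with r = 0.832 and a slope of 0.845 for Dex, and r = 0.923 and 0.812 for IL4. These peaks share their libraries, and the values are descriptive.

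**Figure D4:**
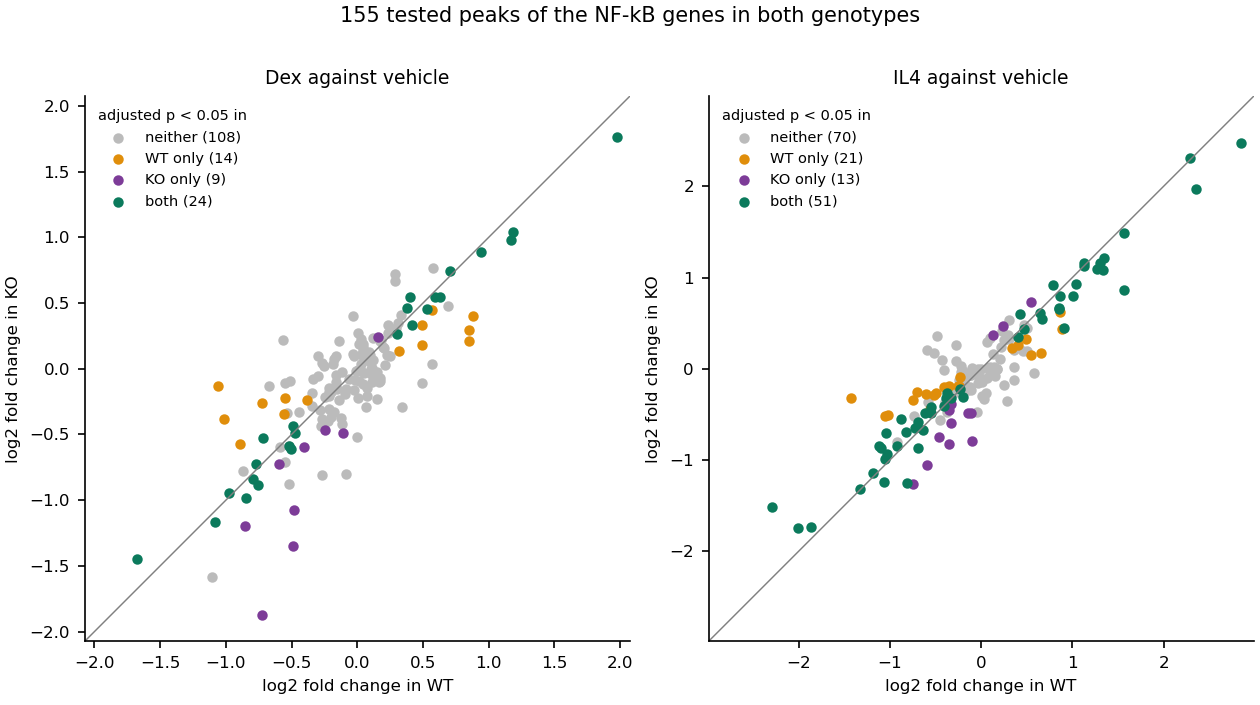
Log2 fold change against vehicle of the 155 tested members in KO (vertical axis) by that in WT (horizontal axis), for Dex (left) and IL4 (right), coloured by the genotype in which the peak was called. The line marks equal effects, and 24 peaks for Dex and 51 for IL4 were called in both genotypes.

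Tests of the difference itself called few members. The Dex effect differed between genotypes at 0 of 155 members (0% of all peaks), with 2 at an unadjusted p below 0.05 (3.46% of all peaks). The IL4 effect differed at 0 (0.00231% of all peaks), with 6 unadjusted (4.1%). KO against WT called 0 members with vehicle (0.616% of all peaks; 10 unadjusted, against 9.08%), 1 with Dex (0.953%; 21 unadjusted, against 10.1%) and 0 with IL4 (0.841%; 9 unadjusted, against 9.15%). DESeq2 called 0 in all 5 of these tests. The member called with Dex was a low peak 18.0 kb upstream of Traf1, chr2:34979701-34979859, inside and nearer to the predicted gene Gm52552. It held 1.41, 1.85, 1.97 and 1.07 CPM in WT and 2.69, 2.82, 2.52 and 2.43 CPM in KO Dex libraries. The groups did not overlap (0.83 ± 0.21, adjusted p = 0.0244). The call was lost without WT Dex replicate 1 (0.81) or 4 (0.61), or KO Dex replicate 1 (0.81) or 2 (0.78).

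Other genes of the pathway were read from a list of 35, of which 32 had a tested peak and 317 peaks in all; Nfkbie, Irak1 and Rnf31 had none. Dex called 33 of these peaks higher and 34 lower (21.1%, against 16.6% of all tested peaks), and IL4 59 higher and 82 lower (44.5%, against 35.4%). Over all tested peaks IL4 called 19.3% higher and 16.1% lower. The 6 genes listed as IkB kinases or related kinases had 4 peaks higher and 20 lower of 56 with IL4 (42.9% called). With Dex they had 5 higher and 3 lower. By gene, IL4 called 1 higher and 7 lower of 16 for Map3k14, 0 and 5 of 13 for Tbk1, and 0 and 5 of 6 for Ikbke. For the IkB kinase genes Chuk, Ikbkb and Ikbkg the IL4 counts were 0 and 1 of 5, 2 and 2 of 9, and 1 and 0 of 7. The adaptor, ubiquitin and deubiquitinase genes had 52 higher and 57 lower of 248 with IL4, and 27 higher and 31 lower with Dex. The IL4 split differed between genes, of which 4 are named after their values were seen. Zc3h12a had 14 higher and 0 lower of 21, and Traf5 10 higher and 1 lower of 13. Irak2 had 1 higher and 9 lower of 14, and Irak3 0 higher and 9 lower of 14. The remaining subunit and IkB genes had 3 higher and 5 lower of 13 with IL4, and 1 higher and 0 lower with Dex. Among them the promoter peak of Nfkbib, an inhibitor of the same kind as Nfkbia, was lower with IL4 (−0.31 ± 0.07, adjusted p = 9.25e-05; 48.9 ± 2.8 against 60.6 ± 1.8 CPM, SD, n = 4). The Nfkbid peak 0.077 kb from its TSS went the other way and was higher with IL4 (0.94 ± 0.12, adjusted p = 3.02e-10). It held 14.5 ± 2.1 CPM with IL4 and 7.70 ± 1.3 CPM with vehicle. Nfkbid had 2 peaks higher and 2 lower of 5 with IL4. Only the TMM scaling was read for these Nfkbib and Nfkbid peaks. Of all peaks within 1 kb of a listed TSS, 43.0% were called lower and 6.27% higher with IL4. Of the 4 peaks of Rela, the main partner subunit, IL4 called 1 higher and 1 lower, with the smaller p-value at the higher one, 12.0 kb from the TSS (0.55 ± 0.15, adjusted p = 0.00261). In KO Dex called 24 higher and 30 lower of the 317 (17.0%, against 13.6% of all tested peaks in KO). IL4 called 52 higher and 75 lower there (40.1%, against 31%).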

How the data were processed

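ATAC-seq libraries, 24 in all, cover 6 groups of 4. The authors deposited whole-number counts of reads in 144411 peaks for each library. They also deposited log2 fold changes and p-values for 9 comparisons of 71942 peaks, with gene names and TSS distances. Per the submitters' processing notes the build is mm10 and the tools include featureCounts, MACS2, Bowtie2, SAMtools, fastp and edgeR, in roles not stated. The sources used here give no shift of reads to the transposase cut. The log2 values and p-values of the authors' deposited table served only as a check: their slope on the values computed here was 1.00, and of the 102 members in it both called 26 for WT Dex and 53 for WT IL4.

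The counts went into edgeR 4.0.16 (R 4.3.3): filterByExpr (130103 peaks kept, 14308 removed), TMM factors (0.935 to 1.07), a robust quasi-likelihood model with 1 mean per group, and Benjamini-Hochberg adjustment over all tested peaks. Calls need an adjusted p under 0.05. The SE is the log2 fold change divided by the square root of F. There were 10 comparisons: both agents with vehicle within WT and within KO, the agents with each other in WT, the genotypes within each treatment, and the genotype interactions of both agents. Alternatives used DESeq2 1.42.0, limma 3.58.1 (loess offsets, prior count 2), other scalings, a replicate block and leaving out libraries. The fit was tested on simulated data. Tables and figures used pandas 2.3.3, numpy 2.4.6 and matplotlib 3.10.9. Per gene the text names the promoter peak, the peaks with the smallest Dex and IL4 p-values in WT, and called genotype differences. It also names up to 3 peaks called by both agents in the same and in opposite directions. Members and lists were chosen with earlier results of these data known. No genome was used, so exons and the sequences of distal peaks are not given. One marker list is not reported here.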

Additional observations from a re-analysis of the deposited data

Results flagged for a closer look

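At 11 of the 150 combinations of named peak and group, 1 library stood apart from the other 3 (by the ratio of its gap to the nearest over the range of the 4). Chance flags about 1 in 20 such groups. Of WT libraries, Dex replicate 2 was high at the Nfkb1 peak chr3:135574829-135575356 (2.22 CPM, others 1.35 to 1.48), and Dex replicate 1 at the Tnfaip3 promoter peak (52.8 CPM, others 42.8 to 44.0). WT vehicle replicate 4 was low at the Bcl3 peak chr7:19830716-19832280 (76.4 CPM, others 82.5 to 83.6).

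Of KO libraries, vehicle replicate 2 was low at the Nfkb1 peak chr3:135556077-135556795 (0.710 CPM, others 1.37 to 1.44). Vehicle replicate 4 was high at the Nfkbia promoter peak (99.8 CPM, others 92.7 to 93.3), and vehicle replicate 1 at the Traf1 peak chr2:34957721-34958847 (15.2 CPM, others 11.0 to 11.6). With Dex, replicate 1 was high at the Rel peak chr11:23734099-23735103 (3.58 CPM, others 2.05 to 2.25). KO Dex replicate 4 was high at the Nfkbiz peak chr16:55820798-55822657 (55.5 CPM, others 45.3 to 45.9) and at the Birc3 peak chr9:7867990-7868495 (12.3 CPM, others 10.2 to 10.4). With IL4, replicate 4 was high at the Nfkbia peak chr12:55488602-55489319 (38.2 CPM, others 35.7 to 36.0) and low at the Tnfaip3 peak chr10:19047385-19047840 (2.89 CPM, others 3.17 to 3.19).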

How the results depend on the processing

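Leaving out 1 library at a time gave 31 to 50 called members for Dex in WT, 67 to 74 for IL4, 74 to 83 for IL4 against Dex, 26 to 32 for Dex in KO and 53 to 61 for IL4 in KO. It gave 0 to 1 for KO against WT with Dex, 0 to 1 with IL4, and 0 with vehicle and for both interactions. The 1 member called for KO against WT with Dex became 0 with only peaks of the authors' table, without peaks nearer to an unlisted gene (an alternative chosen after seeing the data), with DESeq2 and without the 3 WT libraries numbered 1. The 0 with IL4 became 1 with only the groups compared, without the 3 WT libraries numbered 1, and with a replicate block across genotypes (also chosen after seeing the data). The cause was not tested. IL4 values reversed under loess at the Rel promoter peak (0.27) and at the Bcl3 peak chr7:19830716-19832280 (0.048). Of 640 alternative values for 40 results on named peaks, 608 kept direction and side of the threshold, 24 lost the call, 6 gained it and 2 reversed. With the replicate number as a block within genotype the counts were 52 and 79 for Dex and IL4 in WT, 93 for IL4 against Dex, and 43 and 76 in KO. Calls over all tested peaks under the alternatives in this section are not given, so these counts describe the members only. Same-numbered libraries of a genotype deviated together weakly (r 0.003 to 0.202, over 0.1 in 9 of 24 pairs), and 23 of 24 libraries correlated best with their own number, a hint from the data only. Depth limits peaks such as the 7 untested members.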
